A study of Rattus norvegicus with 24 samples.

Results

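The genes of the extracellular matrix and of its receptors were examined in the dorsal root ganglion (DRG) of the rat, the cluster of sensory nerve cell bodies beside the spinal cord. A probe was taken as a member when the gene symbol of the array's annotation began with the letters of the collagens, laminins, integrin alpha and beta chains, fibrillins, fibulins, lysyl oxidases, matrix metalloproteinases or their Timp inhibitors, or was Fn1, Sparc, Lum, Dcn, Fap, Bgn, Fmod, Postn or Cspg4, with Lamc1 left out. This gave 89 probes for 87 genes of 22517 probes on the array, of which 13787 carry 1 gene symbol and 8730 carry none. The integrin-named genes Itgal, Itgam and Itgbl1 match that wording only when letter case is ignored and were not counted as members.

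The 24 arrays came from Sprague-Dawley rats 3 months of age, 4 rats in each of 6 groups. Rats were given vincristine, a microtubule-binding cancer drug that causes a painful neuropathy, or saline for 10 days, and then morphine, oxycodone or saline for 5 days. The groups are vincristine-morphine, vincristine-oxycodone, vincristine-saline, saline-morphine, saline-oxycodone and saline-saline; the last 3, which had no vincristine, are called control rats here. Lumbar ganglia L2 to L5 of each rat were dissected whole, so a lower signal from fewer cells of a type and a lower signal from less RNA per cell cannot be told apart.

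Fibrillar collagens form the tensile fibres of connective tissue, and lysyl oxidases cross-link them. Laminins and type IV collagen build the basement membrane that coats Schwann cells, satellite glia and blood vessels, and integrins, pairs of an alpha and a beta chain, hold cells to it. Small leucine-rich proteoglycans such as decorin (Dcn) and lumican (Lum) bind collagen fibrils and limit their width, and metalloproteinases cut matrix proteins while Timp proteins block them. In a ganglion most fibrillar collagen comes from fibroblasts of the capsule and the endoneurium.

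A probe was kept for testing when 4 or more of the 24 arrays gave it a detection p-value, measured against the negative controls, no higher than 0.0005. This kept 45 member probes for 44 genes, among 7043 kept probes of the whole array, and 34 of the 45 were detected on all 24 arrays. The other 44 member probes were below that limit. Of these, 42 were detected on no array, Itga11 was detected on 2 arrays and Itga5 on 1. The kept members covered 8 of 9 fibrillar collagen probes, 1 of 4 basement membrane collagens, 5 of 12 other collagens and 1 of 4 laminins. They also covered 2 of 8 integrin alpha chains, 4 of 6 integrin beta chains, 4 of 5 probes for fibrillins and fibulins, 5 of 6 for lysyl oxidases and all 3 Timp inhibitors. Of 21 probes for matrix metalloproteinases and fibroblast activation protein, Mmp14, a membrane-bound collagenase, and Fap, a protease of activated fibroblasts, were kept. The 5 proteoglycans and 3 glycoproteins were all kept. Itgb1bp1 and Itgb3bp, which share the first letters of an integrin symbol and code for other proteins, were kept as well, while Itgb1bp2 was not.

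**Figure D1:**
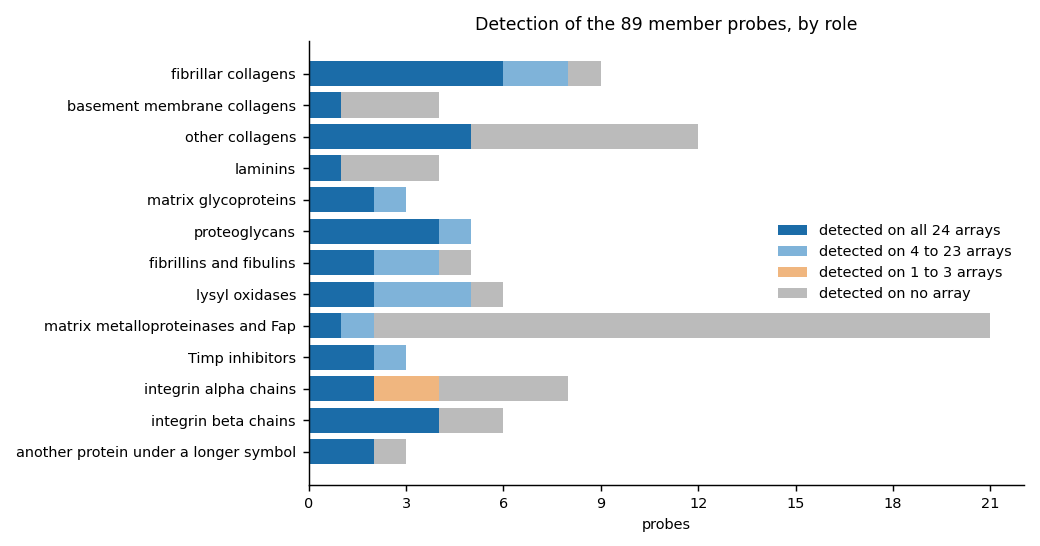
Number of member probes of each role (horizontal axis, probes) by the number of arrays on which they were detected (colours). The bar of metalloproteinases is almost wholly grey, since 19 of its 21 probes were not kept, while 6 of 9 fibrillar collagen probes were detected on all 24 arrays.

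The 4 promoters below belong to members picked from these same data by a small unadjusted p, and none of the 4 passed the adjusted threshold of the main model. Fap among them read near background. RefSeq holds all 4 in its GRCr8 promoter table. Each window runs from 250 bases before to 50 bases after a start site that the table uses. For Col5a2 and Cspg4 that site is the outer end of the gene in the RefSeq gene table, and for Fap and Lum it lies 180 and 383 bases inside the gene. Capitals mark exact matches to the letters CCAAT of the CCAAT box, GGGCGG of the GC box and CAGAC of the SMAD core, each read on both strands and with no overlap among them. The TATA box letters TATAAA and the AP-1 letters TGACTCA were searched on both strands too and are not in these 4 windows. Col5a2 (type V collagen alpha 2 chain, chr9:55090102-55090401, minus strand), Fap (chr3:67616042-67616341, minus strand), Lum (chr7:34245456-34245755, plus strand) and Cspg4 (the NG2 proteoglycan of pericytes and glial precursors, chr8:66160692-66160991, plus strand) read as follows.
Col5a2: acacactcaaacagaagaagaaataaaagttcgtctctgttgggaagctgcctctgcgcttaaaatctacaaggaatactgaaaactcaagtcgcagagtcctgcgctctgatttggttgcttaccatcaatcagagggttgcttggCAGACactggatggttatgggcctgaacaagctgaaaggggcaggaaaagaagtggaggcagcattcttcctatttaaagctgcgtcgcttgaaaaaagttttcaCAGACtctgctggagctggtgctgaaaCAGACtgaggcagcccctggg
Fap: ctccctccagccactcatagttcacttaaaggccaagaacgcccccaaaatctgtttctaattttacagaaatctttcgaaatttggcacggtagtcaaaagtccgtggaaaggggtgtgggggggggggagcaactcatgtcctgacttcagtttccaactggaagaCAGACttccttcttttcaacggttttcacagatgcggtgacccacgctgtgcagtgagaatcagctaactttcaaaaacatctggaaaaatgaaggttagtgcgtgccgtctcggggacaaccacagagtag
Lum: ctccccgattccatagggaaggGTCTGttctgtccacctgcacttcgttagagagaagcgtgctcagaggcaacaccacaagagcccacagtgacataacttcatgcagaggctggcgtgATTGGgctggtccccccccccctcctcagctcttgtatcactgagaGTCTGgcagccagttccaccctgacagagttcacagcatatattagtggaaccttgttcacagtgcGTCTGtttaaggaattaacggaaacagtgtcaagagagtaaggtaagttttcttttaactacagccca
Cspg4: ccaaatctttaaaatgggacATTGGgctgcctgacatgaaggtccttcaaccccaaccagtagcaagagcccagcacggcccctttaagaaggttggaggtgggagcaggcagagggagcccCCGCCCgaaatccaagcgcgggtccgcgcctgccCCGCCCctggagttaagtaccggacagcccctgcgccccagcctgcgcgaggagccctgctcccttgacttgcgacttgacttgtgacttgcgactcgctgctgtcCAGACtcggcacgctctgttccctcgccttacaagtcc
The Cspg4 window holds 1 CCAAT match and 2 GC box matches, and the windows of Col5a2 and Lum hold 3 SMAD core matches each. These letters are frequent. Over 27457 RefSeq promoters of the same length, 37.7% hold the CCAAT box, 34.9% the GC box and 13720 windows the SMAD core, while 14.3% hold the TATA box and 4.5% the AP-1 letters. Among the 67 of 87 member genes with a window, 28.4% hold the CCAAT box, 43.3% the GC box, 61.2% the SMAD core, 20.9% the TATA box and 10.4% the AP-1 letters. Among the 30 of these genes with a kept probe, 30.0% hold the CCAAT box, 43.3% the GC box and 63.3% the SMAD core. The TATA box letters are in 6.7% of the 30 and the AP-1 letters in 3.3%. A match is a run of letters, not a shown binding site. Dcn, Mmp14 and Loxl2 have no entry in the table.

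The tissue read as a ganglion, with the mean log2 intensity of 9 kept sensory neuron probes between 11.74 and 11.97 on every array. The arrays fall into 4 runs of 6 neighbouring columns in the deposited table, each with 1 array of every group, and the first principal component of the kept probes, 43.3% of the variance, went with the run for 99.4% of its spread. The skeletal muscle genes, 9 kept probes, had a mean above 7.5 on the log2 scale on 5 arrays, all of opioid groups: vincristine-morphine 1 and 3, vincristine-oxycodone 3 and 4, and saline-morphine 4. These are called the muscle-high arrays. The median standard error of a difference over the kept probes was 0.118 on the log2 scale for 4 arrays against 4 and 0.0682 for 12 against 12. No member passed an adjusted p of 0.05 (limma, Benjamini-Hochberg over 7043 probes) in any of the 12 comparisons made, and what follows describes sizes, directions and the probes with the smallest unadjusted p.

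The members differed in how far their values went with the run or with the group. The mean of the 45 kept probes lay between 8.68 and 9.02 on the log2 scale in the vincristine groups and between 8.73 and 9.04 in control rats, so the arrays of both arms covered the same range. Per probe, the run took a median of 24.2% of the variance over the 24 arrays and the group 20.3%. These are raw shares, and 6 groups take up more variance by chance than 4 runs do. The shares over all kept probes were not taken, so the group share is no measure of a treatment effect. Basement membrane collagen Col4a1, with 80.6% on the run, and Itga7, a laminin-binding integrin chain, with 80.3%, followed the run, as did 1 of the kept Loxl1 probes with 90.8%. At the other end stood Dcn, with 58.1% on the group and 5.68% on the run, and Col5a2 with 51.5% and 3.14%. Col3a1, the type III fibrillar collagen, had the widest range of all kept members, 3.25 on the log2 scale. It read 7.91 in vincristine-morphine 1 and 11.16 in saline-morphine 1.

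After the group and run means were taken out, some members still moved together from array to array. Over the 990 pairs of kept member probes the median correlation was 0.0983 and 96 pairs were above 0.5. All probes of an array share the ganglion dissection of that rat, so these values are given as a description over 24 arrays. Lox and Loxl1, both cross-linking enzymes, had r = 0.88, and the pair of Loxl1 probes had 0.83. Col5a2 had r = 0.85 with Mmp14 and 0.84 with Loxl2, and Loxl2 had 0.84 with Lum and 0.81 with Dcn. Among integrin chains the median was 0.12 over 15 pairs, with none above 0.5. The mean of the member probes had r = 0.87 with the mean of 22 matrix probes outside the rule, 0.62 with fibroblast markers outside the rule, -0.55 with myelinating Schwann cell markers and -0.44 with satellite glia markers. The matrix and fibroblast lists share Dpt, Mfap5, Ogn and Prelp. Dcn and Lum, which neighbour each other on chromosome 7 in the GRCr8 gene order with no protein-coding gene between them, had r = 0.75. Col3a1 and Col5a2, neighbours on chromosome 9, had r = -0.23.

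Vincristine against control asks which of these genes still differed after the opioid phase, over 12 arrays in each arm. Of 45 kept members 15 were higher and 30 lower in vincristine rats, with a median difference of -0.04 on the log2 scale. Over all kept probes 50.6% were lower and the median was -0.00089. Leaving out 1 array moved the members' median, from -0.07 without vincristine-morphine 4 to -0.02 without saline-saline 1. No member was called, against 0.199% of all kept probes. At an unadjusted p of 0.05, 4 members (8.89%) stood lower and none higher, where 1.70% of all kept probes stood lower and 2.77% in either direction, and the 4 became 2 without vincristine-saline 3. All 4 kept fibrillins and fibulins and 7 of 8 fibrillar collagens were on the lower side, with medians of -0.14 and -0.09.

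Cspg4 had the smallest p of the members in that comparison. Its log2 intensity ran from 8.31 over a median of 8.70 to 8.88 in the 12 vincristine arrays and from 8.62 over 8.89 to 9.02 in the 12 control arrays. The arms overlap, and the 4 lowest of the 24 arrays are vincristine arrays. The difference was -0.20 (SE 0.0644, 0.872-fold), with an adjusted p of 0.757 by limma and a two-sided permutation p of 0.0036. It was lower within each of the 4 runs, by 0.29, 0.12, 0.11 and 0.28 in vincristine arrays. With the run as a block the SE fell to 0.0434 and the adjusted p to 0.0421, where 0.596% of all kept probes were called. Leaving out the 5 muscle-high arrays, with the run block, gave a difference of -0.17 and an adjusted p of 0.405. The only kept pericyte and smooth muscle probes outside the rule were Tagln, at -0.26, and Des, at 0.12. The other listed markers were not kept, so the level of that cell type could not be read from these.

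Sparc, a collagen-binding glycoprotein that many stromal and glial cells secrete, ran from 11.76 over 12.19 to 12.53 in vincristine arrays and from 12.18 over 12.41 to 12.63 in control arrays. The difference was -0.21 (SE 0.0795), with an adjusted p of 1.00 by limma and a permutation p of 0.0114. The 5 lowest arrays are vincristine arrays, the lowest 3 of them vincristine-oxycodone 1, vincristine-saline 3 and vincristine-oxycodone 4. Col1a2, the alpha 2 chain of type I collagen, ran from 13.45 over 13.58 to 13.75 in vincristine and from 13.52 over 13.70 to 13.95 in control arrays, a difference of -0.10 (SE 0.0475, permutation p = 0.0348). Fbn2, a fibrillin of elastic microfibrils, ran from 6.27 over 6.70 to 7.07 and from 6.64 over 6.87 to 7.06, a difference of -0.17 (SE 0.0702, permutation p = 0.0338). The kept Fbn2 probe was detected on 22 of 24 arrays. Cspg4, Sparc, Col1a2 and Fbn2 were among 11 members (with Col15a1, Col1a1, Col4a1, Col5a3, Fbln5, Fbn1 and Itgb5) that were lower within all 4 runs, against 8.18% of all kept probes, and Itgb6 was higher in all 4, against 6.23%.

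Other members that the fit placed near 0 show what the arrays could bound. Itgb1, the beta chain shared by most matrix-binding integrins, differed by -0.02 (95% interval -0.17 to 0.13), and Lamb2, the laminin beta 2 chain of the nerve basement membrane, by -0.01 (-0.12 to 0.10). Itgb4, a chain of a laminin receptor of myelinating Schwann cells, differed by -0.03 (-0.18 to 0.12), and Fn1, fibronectin, by -0.05 (-0.36 to 0.27). The inhibitor Timp1 differed by -0.06 (-0.16 to 0.04) and Timp2 by 0.04 (-0.09 to 0.17), Fbln1, a fibulin of elastic and basement membrane matrix, by -0.02 (-0.19 to 0.15) and Col14a1, a collagen on fibril surfaces, by 0.07 (-0.05 to 0.18). Col3a1 had the widest distance, -0.59, with an interval from -1.24 to 0.06. Lamc1, the gamma chain of most laminins, was left out of the members by their definition. It was 0.55 lower on the log2 scale in vincristine rats and passed the test (limma adjusted p = 0.0127), the 1 called of the 22 kept probes on a list of 49 matrix genes outside the rule, of which 7 were higher and 15 lower.

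**Figure D2:**
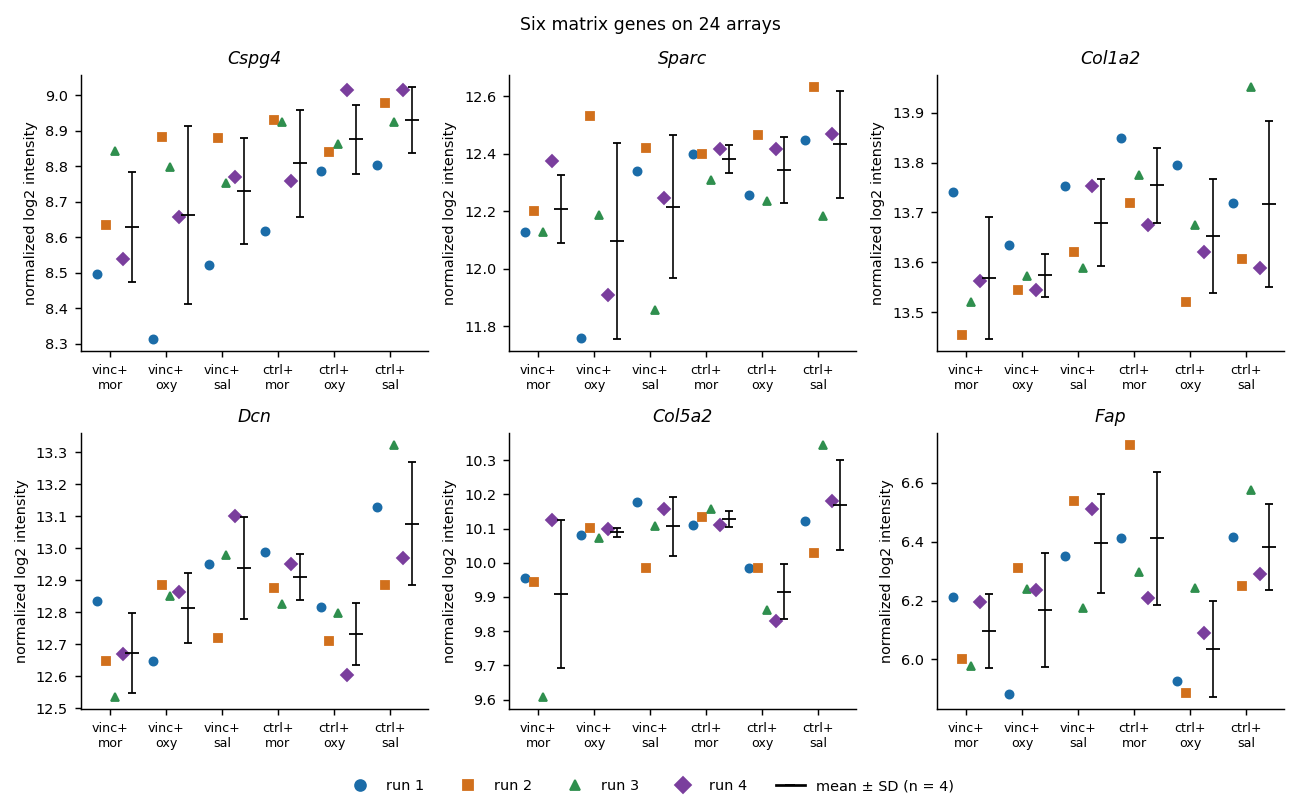
Normalized log2 intensity (vertical axis) of 6 members in each of 24 arrays by group (horizontal axis; vinc, vincristine; ctrl, control; mor, morphine; oxy, oxycodone; sal, saline), with the run given by colour and shape and the mean ± SD of 4 arrays in black. Dcn and Col5a2 are lower in all 4 saline-oxycodone arrays than in any saline-saline array, and Cspg4 is low mainly in vincristine arrays.

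Opioids against saline pooled the 16 arrays of rats given morphine or oxycodone against the 8 given saline in the opioid phase. Of 45 kept members 8 were higher and 37 (82.2%) lower, where 51.7% of all kept probes were lower, and the median was -0.05 against -0.0024 over all kept probes. Not every opioid group lay lower. The mean of the 45 probes was 8.95 in saline-morphine, against 8.93 in vincristine-saline and 8.91 in saline-saline. No member was called, against 0.114% of all kept probes, and 4 members (8.89%) had an unadjusted p of at most 0.05, all lower, against 1.52% of all kept probes lower and 2.90% in either direction. The 5 kept lysyl oxidases, the 5 other collagens and the 3 Timp inhibitors were all on the lower side, and among fibrillar collagens 6 of 8 were. The median was below 0 within each of the 4 runs, between -0.10 and -0.05. The 9 muscle probes were all higher in opioid arrays, by a median of 0.69. Without the 5 muscle-high arrays, all of them opioid arrays, 34 of 45 members were lower, with a median of -0.06. The part of muscle in the members' result was not tested.

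Dcn, decorin, had the smallest p of all members in any of the 5 main comparisons. In vincristine rats it read 12.65, 12.54, 12.67 and 12.84 with morphine, 12.65, 12.89, 12.85 and 12.86 with oxycodone and 12.72, 12.95, 12.98 and 13.10 with saline. In control rats it read 12.99, 12.88, 12.82 and 12.95 with morphine, 12.82, 12.71, 12.80 and 12.60 with oxycodone and 13.13, 12.89, 13.32 and 12.97 with saline. The 3 highest of the 24 arrays were saline arrays and no opioid array exceeded 12.99, with the groups still overlapping. The pooled difference was -0.23 (SE 0.0587, 0.855-fold), with a limma adjusted p of 0.332 and a two-sided exact permutation p of 0.0021. It was lower within all 4 runs, by 0.22, 0.02, 0.40 and 0.26 in opioid arrays. The adjusted p was 0.140 with the run block and 0.0499 with array weights, a fit that counts noisier arrays less and called 0.312% of all kept probes.

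Fap in control rats read 5.93, 5.88, 6.24 and 6.09 with oxycodone against 6.41, 6.25, 6.58 and 6.29 with saline, and 6.41, 6.73, 6.30 and 6.21 with morphine. In vincristine rats it read 6.001, 5.98, 6.19 and 6.21 with morphine, 5.88, 6.31, 6.24 and 6.24 with oxycodone and 6.54, 6.35, 6.17 and 6.51 with saline. The highest of the 24 values, 6.73, was of a saline-morphine array, and the opioid and saline arrays overlap. The probe was detected on 2 of the 16 opioid arrays and 3 of the 8 saline arrays, and on none of the 4 arrays of vincristine-morphine, vincristine-oxycodone or saline-oxycodone, where it was not well above background. The pooled difference of -0.21 (SE 0.0743, exact permutation p = 0.0243) is therefore between values near background. In comparisons with those 3 groups only a lower bound on the fold could be set, which did not exceed 1 in any of them, so no fold is given for Fap there. Postn, the matricellular protein periostin, was not well above background in vincristine-morphine and saline-oxycodone, nor Timp3 and the lysyl oxidase Loxl3 in saline-saline. The counts and medians over the 45 members include these 4 probes, and the counts at an unadjusted p of 0.05 that name Fap include it. Fap passed the detection filter only through arrays of vincristine-saline, saline-morphine and saline-saline, the groups where it read highest. Its place in those counts is therefore no support for a difference. Itga1, the alpha chain of a collagen-binding integrin, differed by -0.28 (SE 0.1, exact permutation p = 0.0062), and its 8 saline arrays ran from 7.91 over 8.10 to 8.27 while the 16 opioid arrays ran from 7.30 over 7.90 to 8.24. Col5a2 differed by -0.13 (SE 0.0525, exact permutation p = 0.0248). The adjusted p of each of these 3 was 1.00. Dcn, Fap and Itga1 were among 8 members (with Col18a1, Fbn1, Fn1, Itgb4 and Itgb6) lower within all 4 runs, against 8.65% of all kept probes.

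Split by arm, the opioid differences share their saline arrays within an arm and are set side by side. In control rats oxycodone against saline gave 31 of 45 members lower, 5 of them at an unadjusted p of 0.05 (11.1%, against 1.38% of all kept probes lower and 2.67% in either direction). Of all kept probes 50.9% were lower and 0% were called, and no member was called. Dcn was -0.34 (SE 0.0958), Itga1 -0.45 (0.164), Col5a2 -0.25 (0.0857) and Lum -0.27 (0.127), and the fifth of the 5 is Fap. For Dcn, Itga1 and Col5a2 the 4 oxycodone arrays lay wholly below the 4 saline arrays, which at 4 against 4 gives an exact two-sided permutation p of 0.0286, the lowest possible. The nearest arrays of the groups stood close for Itga1, at 8.057 and 8.059. Such a gap in the lower direction was found in 0.866% of all kept probes. Morphine against saline in control rats gave 25 members higher and 20 lower. There Dcn was -0.17, Fap 0.03, Itga1 -0.27 and Col5a2 -0.04, none with an unadjusted p of 0.05, and Col11a2, a cartilage-type fibrillar collagen detected on 11 arrays, was 0.72 (SE 0.32), the 1 member at that p (2.22%, against 2.09% of all kept probes). Col11a2 was detected on 2 of 4 saline-morphine arrays and on 1 of 4 saline-saline arrays, so its difference rests largely on values near background.

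In vincristine rats morphine against saline gave 37 of 45 members lower with a median of -0.12, where 51.2% of all kept probes were lower. Dcn was -0.26 and Col5a2 -0.20, and with Fap they are the 3 with an unadjusted p of 0.05 (6.67%, against 0.937% of all kept probes lower and 1.82% in either direction). That count was 0 without vincristine-saline 4 and 5 without vincristine-morphine 3. Oxycodone against saline gave 34 of 45 lower with a median of -0.08, where 49.6% of all kept probes were lower, and Fbn2, at -0.28 (SE 0.122), was the 1 member at that p (2.22%, against 1.65%). Dcn was -0.13, Itga1 -0.17 and Col5a2 -0.02 there. Col5a2 under morphine leaned on vincristine-morphine 2, and without that array the -0.20 became -0.10. In the comparisons of control morphine and of vincristine oxycodone with saline, single arrays moved Dcn and Itga1 as well. Dcn went from -0.17 to -0.09 in control morphine without saline-saline 3, and Itga1 from -0.27 to -0.10 without saline-morphine 4. The fibroblast markers outside the rule, 11 of 16 listed genes kept, were all lower in the pooled opioid comparison, by a median of -0.07, and 18 of 22 matrix probes outside the rule were lower, also by a median of -0.07. Dpt, Mfap5, Ogn and Prelp are kept on both lists, so these counts are not separate. The mean level of the fibroblast list overlapped among the 6 groups, from 8.71 to 9.26, and the part of that list in the members' result was not tested.

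Morphine and oxycodone are both morphinan agonists of the mu-opioid receptor. Oxycodone carries a ketone and a hydroxyl group on the ring skeleton and a methyl ether where morphine has a free phenol. They were given at the same dose and for the same time, so their arrays were compared directly in 2 pairs of groups. In control rats 35 of 45 members (77.8%) were higher with morphine than with oxycodone and 10 lower, with a median of 0.12, where 50.2% of all kept probes were higher and the median was 0.00047. Without saline-oxycodone 2 the members' median was 0.06. No member was called and neither was any other probe, 0% of 7043. At an unadjusted p of 0.05 stood 6 members (13.3%, against 3.81% of all kept probes), 5 higher and 1 lower, and 2 stood there without saline-oxycodone 4. All 8 fibrillar collagens were higher, with a median of 0.19, and so were all 5 other collagens.

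Col5a2 in control rats read 10.11, 10.13, 10.16 and 10.11 with morphine against 9.98, 9.99, 9.86 and 9.83 with oxycodone. The groups do not overlap. The difference was 0.21 (SE 0.0857, 95% interval 0.03 to 0.39) and the exact permutation p was 0.0286. Lum read 11.52, 11.53, 11.48 and 11.66 against 11.48, 11.10, 11.30 and 11.09, a difference of 0.31 (0.04 to 0.57), with the groups meeting at 11.48. Loxl2, a lysyl oxidase that was detected on 10 arrays, differed by 0.37 (0.03 to 0.71) and Col5a1, the partner chain of Col5a2, by 0.23 (0.03 to 0.43), and Fap is the other of the 5 on the higher side. Loxl2 was detected on all 4 saline-morphine arrays and on 1 of 4 saline-oxycodone arrays, so its difference is taken largely against background. Itgb4 went the other way, -0.28 (-0.54 to -0.02, and -0.18 without saline-morphine 2), at 10.77, 10.13, 10.41 and 10.40 with morphine and 10.82, 10.51, 10.80 and 10.70 with oxycodone. The adjusted p of each was 1.00 by limma. Col5a2, Dcn and Mmp14 were the members whose 4 morphine arrays lay above the 4 oxycodone arrays, against 0.795% of all kept probes, and none lay below, against 0.781%. Within all 4 runs 10 members were higher, against 7.01% of all kept probes. The median was 0.13, 0.17 and 0.06 in runs 1 to 3 and -0.0072 in run 4, where the saline-morphine array is the muscle-high one. The 9 muscle probes differed by a median of 1.03 in the same direction. With the muscle-high arrays left out, 35 of 45 members were higher with morphine, with a median of 0.15.

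In vincristine rats 19 members were higher with morphine and 26 lower, with a median of -0.02 against -0.0011 over all kept probes, of which 50.7% were lower. None was called (0% of all kept probes), and Col5a2 was the 1 member (2.22%) at an unadjusted p of 0.05, against 0.753% of all. It read 9.95, 9.61, 10.12 and 9.96 with morphine and 10.08, 10.10, 10.07 and 10.10 with oxycodone, a difference of -0.18 (95% interval -0.36 to -0.0020, exact permutation p = 0.143). The morphine arrays are spread widely and 3 of the 4 lie below every oxycodone array, and the difference was -0.08 without vincristine-morphine 2 and -0.25 without vincristine-morphine 3. Without the muscle-high arrays it was -0.31. For Dcn the interval was -0.34 to 0.06, for Lum -0.37 to 0.15 and for Sparc -0.18 to 0.40, so differences of those sizes in either direction could not be told from 0. No member's groups of 4 were apart in either direction, against 0.241% of all kept probes higher and 0.383% lower.

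The interaction asks whether the distance between morphine and oxycodone differed between vincristine and control rats. It is the difference in vincristine rats minus the difference in control rats given above. It shares those arrays with the sign of the control rats reversed, so it is not a separate result. Of 45 members 12 had a value above 0 and 33 below it, with a median of -0.14 against -0.0020 over all kept probes, of which 50.5% were below 0. The members' median was -0.19 without vincristine-morphine 4 and -0.06 without saline-oxycodone 2. All 8 fibrillar collagens, all 5 other collagens and all 3 Timp inhibitors were below 0. No member was called and no other probe was, 0% of 7043. Members at an unadjusted p of 0.05 numbered 4, all below 0 (8.89%, against 1.60% of all kept probes below 0 and 2.98% on either side), and 2 without vincristine-morphine 2. Col5a2 had -0.39 (SE 0.121, unadjusted p = 0.0039 and adjusted p = 1.00 by limma), and was below 0 within all 4 runs, at -0.25, -0.30, -0.76 and -0.25. Its largest value came from run 3, which holds vincristine-morphine 2 at 9.61, and without that array the interaction was -0.29. Dcn had -0.32 (SE 0.136) and Lum -0.42 (0.179), and the other is Fap. The median over the members was below 0 in runs 1 to 3 and 0.11 in run 4.

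**Figure D3:**
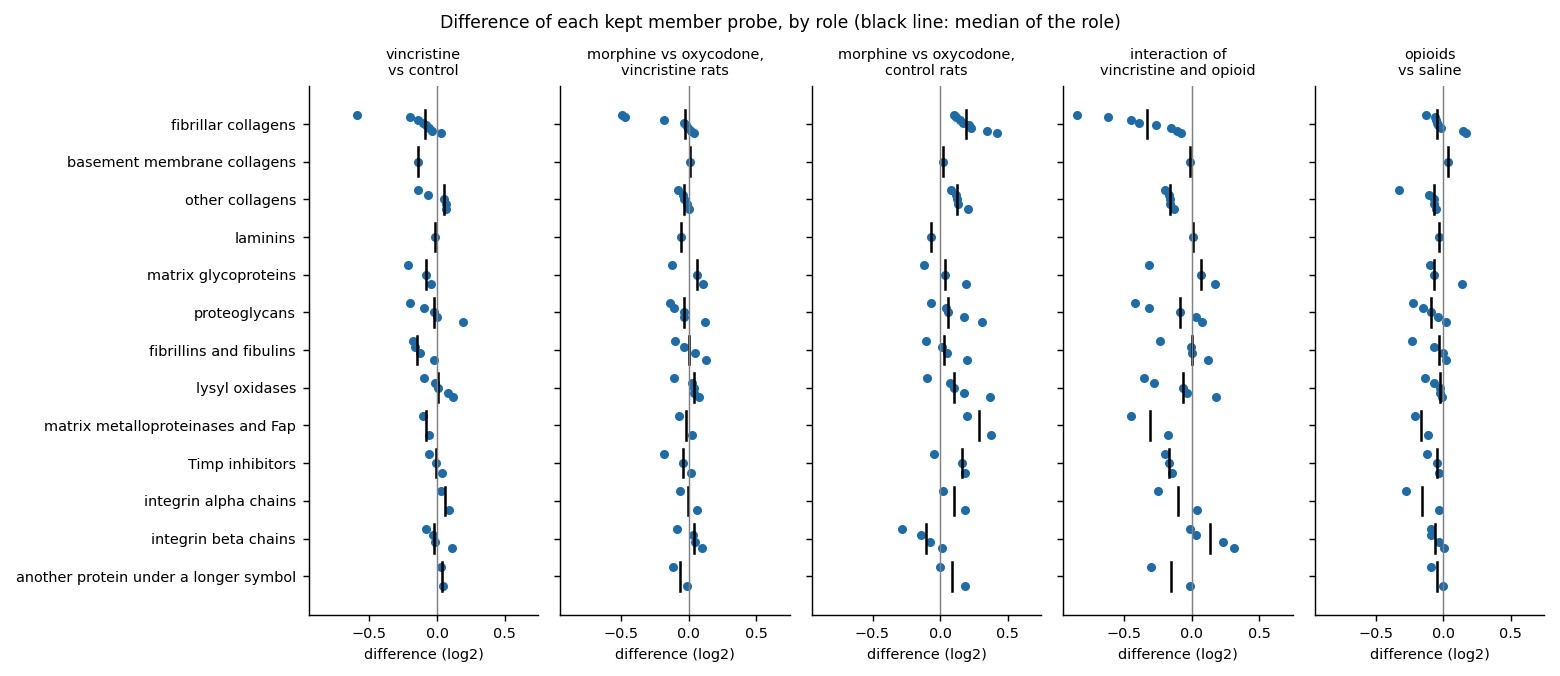
Difference on the log2 scale (horizontal axis) of each of the 45 kept member probes (blue points) in 5 comparisons (panels), by role (vertical axis), with the median of each role as a black line. All 8 fibrillar collagens lie right of 0 for morphine against oxycodone in control rats and left of 0 in the interaction, while integrin beta chains lie mostly on the other side. The interaction subtracts the control-rat difference, so those panels share arrays and are not separate results.

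**Figure D4:**
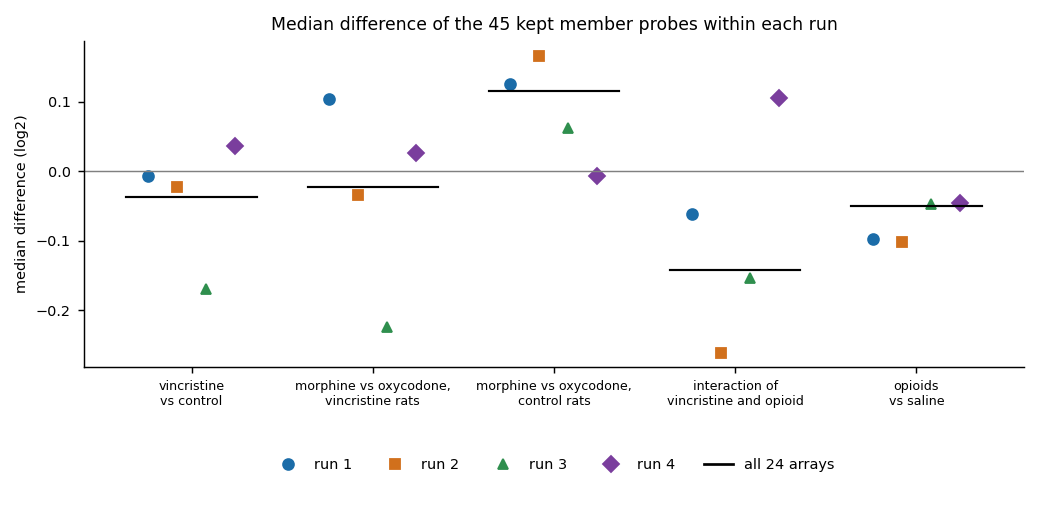
Median log2 difference of the 45 kept member probes (vertical axis) in 5 comparisons (horizontal axis), within each run of 6 arrays (coloured markers) and over all 24 arrays (black lines). Opioids against saline is below 0 in all 4 runs, while the other 4 comparisons each have runs on both sides of 0.

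The vincristine difference was also taken within each opioid phase treatment, in comparisons that do not share arrays with each other. Together they make up the pooled vincristine comparison. They also share arrays with the opioid comparisons and the interaction above, so they are not separate results. Of the 6 groups, the members' mean was lowest in vincristine-morphine, at 8.80, and highest in saline-morphine, at 8.95. Under morphine 37 of 45 members were lower in vincristine rats, with a median of -0.16, where 51.5% of all kept probes were lower. Col5a2 (-0.22), Dcn (-0.24), Col1a2 (-0.19), Col6a1 (-0.22) and Loxl2 (-0.34), with Fap, were lower at an unadjusted p of 0.05 (13.3%, against 1.29% of all kept probes lower and 2.20% in either direction). These 6 became 2 without vincristine-morphine 2 and 10 without vincristine-morphine 4. Loxl2 was detected on all 4 saline-morphine arrays and on 1 of 4 vincristine-morphine arrays, so its difference is taken largely against background. No member was called, against 0.0710% of all kept probes. Without vincristine-morphine 2 the Col5a2 difference was -0.12. Under saline 23 were higher and 22 lower, with a median of 0.0017. The members at that p were Fmod (0.65) and Col11a2 (0.69) on the higher side and Col2a1, the cartilage collagen (-0.46), on the lower (6.67%, against 1.77% of all kept probes, of which 0.0284% were called). Col11a2 was detected on 3 of 4 vincristine-saline arrays and on 1 of 4 saline-saline arrays, so its difference too is taken largely against background. Under oxycodone 24 were higher and 21 lower, with Fbn2 (-0.33) the 1 member at that p (2.22%, against 3.08% of all kept probes, of which 0.0142% were called). Of the 13 members lower within all 4 runs under morphine, against 7.51% of all kept probes, Col1a2, Col3a1, Col5a1 and Col6a1 are collagens that form fibrils or beaded filaments. Both vincristine-morphine 1 and 3 are muscle-high arrays, and the mean of the muscle probes reached 9.48 in that group.

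Genes that serve the matrix without being members were read from gene lists. On the list of collagen processing genes, the prolyl and lysyl hydroxylases, chaperones and propeptide cutters, 6 of 14 kept probes were higher and 8 lower with vincristine, and 8 were higher and 6 lower with opioids. Of 16 kept integrin adaptors and matrix receptors 8 were higher with vincristine and 4 with opioids, with medians of -0.0016 and -0.03. Of 8 kept TGF-beta signalling probes 3 and 7 were higher, with medians of -0.02 and 0.03. None of these passed the test in the vincristine or the opioid comparison. In morphine against oxycodone in control rats 6 of 14 collagen processing probes, 10 of 16 integrin adaptors and 6 of 8 TGF-beta probes were higher. Red blood cell genes, by contrast, were higher with vincristine in 7 of 7 kept probes, by a median of 1.53. All 7 were called, where 0.0994% of all kept probes were called higher. This list too was chosen with earlier results of these data known. The red blood cell probes were read on the same arrays on which the members are compared, and their part in the members' values was not tested.

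Markers of the other cells of a ganglion were read on the same arrays, and their part in the members' values was not tested. In the vincristine comparison 5 of 7 kept meningeal probes, 2 of 6 endothelial, 3 of 5 myelinating Schwann cell, 1 of 6 satellite glia, 4 of 8 macrophage, 3 of 3 adipocyte, 8 of 9 muscle and 2 of 9 sensory neuron probes were higher. In the opioid comparison the counts were 7, 4, 3, 4, 3, 2, 9 and 6 in the same order, and 1 macrophage gene, Trem2, was called (-0.36, limma adjusted p = 0.0365; picked after its value was seen). Neutrophil and lymphocyte markers had 1 kept probe of 13 listed genes, at 0.16 with vincristine and 0.03 with opioids.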

How the data were processed

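Total RNA from the lumbar ganglia (L2 to L5) of each of 24 rats was hybridised to 1 Illumina RatRef-12 array per rat. The deposited signal intensity of each probe and array is on a linear scale with no normalization between arrays, and the deposited detection p-value compares it with the negative controls of the array. The authors' log2 values were also deposited, and they equal the quantile-normalized log2 signals to within 0.00143. The labels and methods do not name the scanner software. Genes were named from GEO's platform annotation, and the symbols of all 89 member probes were carried to RefSeq by Entrez identifier.

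The neqc function (limma 3.58.1, R 4.3.3) corrected the signals for background and quantile-normalized them, with detection p-values standing in for the negative controls. One model with a mean for each of 6 groups (lmFit and eBayes, 18 residual degrees of freedom) was fitted to 7043 kept probes and gave 12 contrasts, with Benjamini-Hochberg adjustment over all 7043 and a threshold of 0.05. Exact permutation tests of single genes (SciPy 1.17.1) are two-sided, and 12 against 12 used random permutations. Median array signal ran from 48.6 to 72.8, with 6112 to 6907 probes detected per array, and the number of arrays limits the precision. The fit was checked on simulated data. The study's own tests were a 2-way analysis of variance and, for morphine against oxycodone, t-tests with no adjustment.

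Named genes are the members with the smallest unadjusted p, those the study's tables list and examples of each role. Alternatives changed the normalization, background correction, source of the values, detection filter, block, array weights, variance model and arrays entered. The members and the gene lists were chosen with earlier results of these data known.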

Additional observations from a re-analysis of the deposited data

Results flagged for a closer look

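Each group of 4 arrays was searched for an array far from its group for 11 named genes and for the mean of the kept member probes, 72 sets in all, by Dixon's test at its 95% critical value, which chance passes in about 1 of 20 sets. It found 3 sets. Sparc in saline-morphine 3 read 12.31 while the other arrays of the group read 12.40 to 12.42. Dcn in vincristine-oxycodone 1 read 12.65, below 12.85 to 12.89. Itga1 in saline-morphine 4 read 7.356, below 7.95 to 8.065, and that array is among the muscle-high arrays.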

How the results depend on the processing

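No alternative called a member except 2. The run block called 1 member with vincristine, Cspg4, and array weights called 1 with opioids, Dcn. Leaving out each array in turn called 0 members in all 12 comparisons. With no detection filter, over 89 probes, 55 were lower with vincristine, 61 higher with morphine than oxycodone in control rats and 59 lower with opioids. Leaving out 1 array gave 25 to 33, 28 to 37 and 34 to 40 of 45. The median over the members was -0.169 with vincristine and -0.223 for morphine against oxycodone in vincristine rats within run 3. For morphine against oxycodone in control rats it was 0.295 with median centring and -0.00718 within run 4, and for the interaction -0.315 with median centring and 0.106 within run 4. Median centring moved the median of all kept probes to 0.19 and -0.19 in these comparisons, and the members' distance from it was 0.10 and -0.13, against 0.12 and -0.14 as reported. With opioids the median was -0.0979 within run 1 and -0.101 within run 2. The median for morphine against oxycodone in vincristine rats ran from -0.0836 to 0.0137 without single arrays.

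Differences near 0 changed sign. For morphine against saline in control rats, Col5a2 was 0.0993 with median centring and -0.0872 to 0.0175 without single arrays, and Fap was -0.0278 with array weights and -0.0762 to 0.0964 without single arrays. Col5a2 for oxycodone against saline in vincristine rats was -0.0586 to 0.00557 without single arrays. The cause was not tested.

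With the replicate number as a block, 0 members were called, and 4, 0, 7, 4 and 4 had an unadjusted p of 0.05 in the 5 main comparisons, against 7, 1, 10, 8 and 7 with the run block and 4, 1, 6, 4 and 4 as reported. Over all kept probes the run block raised that share too, to 466, 186, 704, 618 and 493 of 7043 probes, from 2.77%, 0.753%, 3.81%, 2.98% and 2.90%. Arrays sharing a number deviated together in 30 of 60 pairs (r over 0.1, mean 0.0447), not in every pair, and 17 of 24 correlated best with their own number, which equals the run for 18 of 24 arrays. Arrays of a run did so in 53 of 60 pairs and 23 of 24. Tests in the manner of the methods were also run on the authors' log2 values, with undetected values left out. For vincristine this was a contrast of 6 group means, and for morphine against oxycodone a t-test. Members at an unadjusted p of 0.05 were 3 of 38 with vincristine. For morphine against oxycodone they were 0 of 38 in vincristine rats and 4 of 39 in control rats. All probes gave 184 of 6322, 74 of 6429 and 189 of 6535, and 0 members remained after Benjamini-Hochberg. Fap and Loxl2 were detected on 5 and 10 of 24 arrays, near background.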
